A study of Mus musculus with 12 samples.

Results

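The Rex1-/- ES cell line HP4 was compared with the Rex1+/- line RKPG9 across all named genes, using the 6 arrays of these lines, 3 per line, out of 12 arrays in the series. The members are the gene probes of these arrays, which number 20280, and 8457 of them carry a current symbol for 6567 genes. Rex1, the product of Zfp42, was disrupted by replacing the beginning of its coding region with a pacEGFP cassette on 1 allele in RKPG9, and 2 alleles are disrupted in HP4. Both lines derive from E14tg2a, and both were grown on gelatin with LIF and serum but no feeder cells. The sources give 2 routes to Rex1-/- cells, selection of RKPG9 in high-dose puromycin and a second targeting vector with hygromycin resistance, and do not say by which HP4 arose, so the second allele of HP4 may carry either insert. In this comparison each genotype is represented by a single line, and the genotype therefore cannot be told apart from the line. The Rex1-/- line HP3 and the wild-type line EB5, with 3 arrays each, are given beside HP4 where they bear on a result.

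Rex1 is a zinc finger protein made by naive ES cells and related to YY1, a DNA-binding protein that works with polycomb complexes. It is one of the usual markers of the undifferentiated state, next to the transcription factors Pou5f1, Nanog, Esrrb and Klf4 that hold cells in it. When ES cells leave that state towards the primed epiblast, they switch on genes such as Dnmt3b, Otx2 and Pou3f1, under the influence of FGF and MAP kinase signals. Loss of the naive state and gain of the primed state can be read as separate sets of genes.

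Every value is the log2 ratio of the line, labelled with Cy3, to a universal mouse reference RNA labelled with Cy5 on the same array, and a difference between lines is a difference of these ratios. All 4 lines entered a single fit in limma, and a gene is said to have risen or fallen where its Benjamini-Hochberg adjusted p was under 0.05. The arrays of HP4 were dimmer. The median Cy3 signal above background was 86.5 to 90.5 on the HP4 arrays and 137 to 140 on the RKPG9 arrays, and 85.3 to 86.1% against 89.3 to 89.9% of spots were well above background. Whether the 3 arrays of a line hold separately grown cells is not given in the labels, and the p-values cover only the variation among arrays, possibly technical. In bulk RNA, fewer cells of a kind and less RNA per cell cannot be told apart.

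Of the 9 ES cell markers, 7 were measured, and all 7 were well above background on every array of both lines. Of 10 fibroblast markers, 4 were measured, all 4 well above background but none above the reference RNA in either line. Their summed processed Cy3 signal was 1300 to 1490 on the HP4 arrays and 1910 to 2020 on the RKPG9 arrays, while that of the ES cell markers was 88400 to 102000 and 207000 to 209000. The endoderm markers, 7 measured, summed to 1660 to 1860 against 2010 to 2270, and the trophoblast markers, 5 measured, to 2420 to 2800 against 3460 to 3770. These sums are not scaled between arrays.

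Many genes differed by little. Of 20278 probes tested, 4226 were higher in HP4 (20.8%) and 3887 lower (19.2%) by the adjusted p alone, but only 28 were higher (0.138%) and 49 lower (0.242%) when a change of more than 2-fold was also asked. The arrays of the lines did not overlap for 51.2% of the probes. Taken as genes, each by its brightest probe, 1772 of 6566 rose (27.0%) and 1613 fell (24.6%), with a median difference of 0.01. The number past both thresholds moved strongly with the handling of background, since the processed signals of the scanner software gave 219 higher and 455 lower and an offset of 0 in place of 50 gave 91 and 222.

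The genes of chromosome 8, on which Zfp42 itself lies, were lower in HP4 than in RKPG9 as a group. Among 342 of them the median difference was -0.26, with 218 falls (63.7%), 31 rises (9.06%) and 93 that missed the threshold. Among the 6224 genes of all other chromosomes 22.4% fell and 28.0% rose, and the median was 0.01. No other chromosome moved in this way, the medians of the remaining 19 lying between -0.02 and 0.04 and the share of genes that fell between 15.2 and 28.4%. Relative to the rest of the genes, chromosome 8 read 1.21 times higher in RKPG9 than in HP4, a value that was 1.27 with the processed signals, 1.26 at an offset of 0 and 1.18 for Cy3 alone. These are descriptions over genes, which are not replicates.

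The chromosome 8 median was closely repeated between arrays of a line, and RKPG9 was the line that stood apart. Taken against the mean of RKPG9, the median of chromosome 8 minus that of all other genes was -0.28, -0.27 and -0.28 on the HP4 arrays. It was -0.30 on each of the 3 HP3 arrays and -0.25 on each of the 3 EB5 arrays. The RKPG9 arrays read 0.00 each, by construction. Set against EB5 instead, which was read by the scanner software in a session of its own, the median of chromosome 8 was 0.18 in RKPG9 with -0.07 for all other genes, whereas it was -0.09 in HP4 with -0.06 for the others and -0.08 in HP3 with -0.06. HP4 and HP3 differed there by a median of 0.02. The number of copies of chromosome 8 in these cells was not measured here, and its part in the result was not tested.

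**Figure D1:**
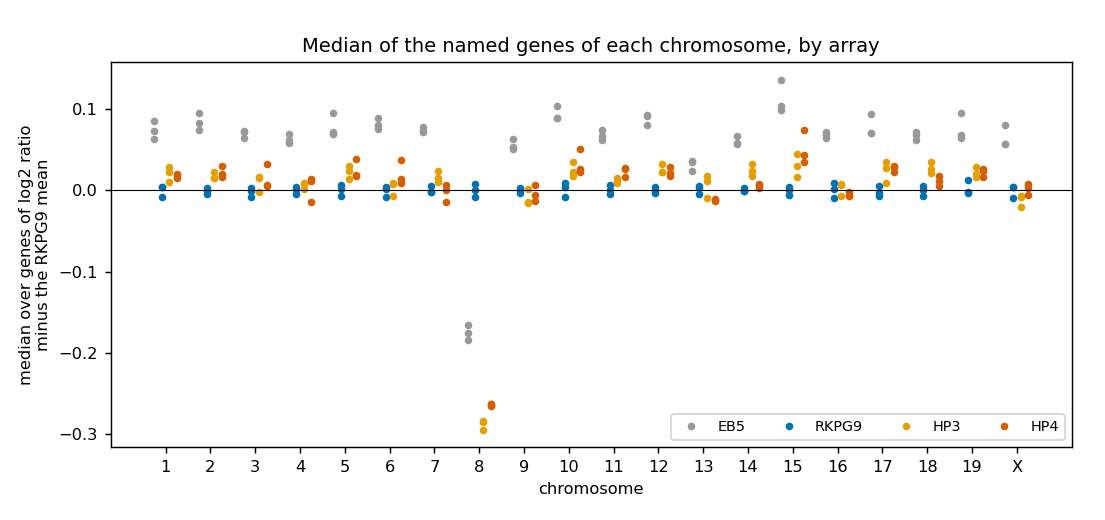
Median over the named genes of each chromosome of the log2 ratio minus the mean of the 3 RKPG9 arrays, with 1 point per array and colours for the 4 lines. The 9 arrays of EB5, HP3 and HP4 lie below -0.1 on chromosome 8 and above -0.03 on every other chromosome.

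The shift ran along the whole of chromosome 8. In 10 groups of 34 or 35 neighbouring genes, ordered by position in GRCm38.p6, the median difference was between -0.38 and -0.14, and between 52.9 and 74.3% of the genes of each group fell. It was larger for bright genes, with a median of -0.05 in the dimmest and -0.43 in the brightest of 4 equal groups of genes, while genes of the other chromosomes had 0.03 and 0.00. With the processed signals, which were not raised by an offset, the same groups gave -0.29 and -0.43. Hhip, Gsr, 4921524J17Rik and Rab4a were the 4 genes of chromosome 8 among the 15 largest falls described below, and none of the 15 largest rises lay on it. This shift enters every list with a member on chromosome 8, and the falls of a list that lie there are named or counted with it.

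**Figure D2:**
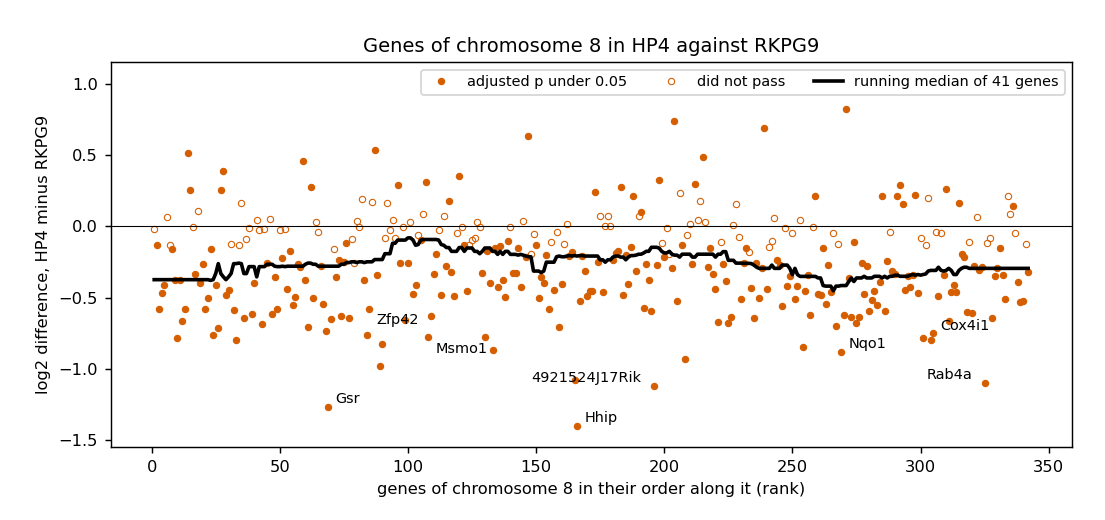
Log2 difference between HP4 and RKPG9 for 342 genes of chromosome 8, by their order along it, filled where the adjusted p is under 0.05. The line is the running median of 41 genes, which stays below 0 from end to end, and 8 genes are named.

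The largest rise in HP4 was that of Upp1, uridine phosphorylase of the pyrimidine salvage pathway. Its log2 ratio was 2.68, 2.68 and 2.54 on the RKPG9 arrays and 4.36, 4.18 and 4.16 on the HP4 arrays, a rise of 1.60 or 3.03-fold (standard error 0.07, adjusted p = 1.8e-08 in limma). It read 3.85 to 3.98 in HP3 and 4.05 to 4.24 in EB5, so RKPG9 was the lowest of the 4 lines. Trpc2, a channel gene of the TRP family, rose by 1.35 from -3.08, -3.16 and -3.30 to -1.76, -1.86 and -1.85, although its other probes gave 0.05 and -0.32. Rpl39l, a paralog of the ribosomal protein gene Rpl39, rose by 1.32, from -1.63, -1.57 and -1.62 to -0.27, -0.23 and -0.33. Kif21a, a kinesin motor of microtubules, rose by 1.28, from -2.39, -2.31 and -2.33 to -1.10, -1.05 and -1.05. EB5 read -1.75 to -1.68 for Trpc2, -0.34 to -0.29 for Rpl39l and -1.34 to -1.29 for Kif21a, nearer to HP4 than to RKPG9. Arrays that did not overlap were a condition for choosing these 4 genes and the others of the largest rises and falls.

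Tcstv1, a gene known from the transcripts of two-cell embryos, rose by 1.25, with -0.13, -0.21 and -0.26 on the RKPG9 arrays and 1.00, 1.08 and 1.08 on the HP4 arrays. HP4 stayed below HP3, which read 1.93, 2.20 and 2.06, a difference of -1.01 (standard error 0.06, adjusted p = 4.8e-06 in limma). The wild-type line EB5 read 1.90 to 2.03 for Tcstv1, also above HP4, so RKPG9 was the lowest of the 4 lines. Dnmt3b, a de novo DNA methyltransferase of the primed epiblast, rose by 1.10 at its brightest probe and by 1.13 at the other. Its ratio was 3.75, 3.91 and 3.98 in RKPG9 and 5.17, 5.00 and 4.78 in HP4. Pim2, a serine and threonine kinase, was tightly repeated and rose by 1.09, from 0.39, 0.40 and 0.42 to 1.48, 1.50 and 1.49. Egr1, an immediate early transcription factor induced by MAP kinase signals, rose by 1.10 and stayed far below the reference RNA, at -3.49, -3.51 and -3.66 in HP4. For Egr1 EB5 read -4.49 to -4.23, nearer to RKPG9 at -4.70 to -4.62.

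The other 7 of the 15 largest rises were between 0.91 and 1.11 on the log2 scale. They were Tasor2, a relative of a component of the HUSH silencing complex (1.11, but 0.00 at a second probe), the actin-binding calponin Cnn2 (0.99), the oxidoreductase Dhrsx (0.97), the immediate early gene Ier5 (0.93), the lipid phosphatase Plpp2 (0.91), the RNA-binding protein Larp1 (0.91) and the glutathione transferase Mgst1 (0.91). All 3 HP4 arrays lay above all 3 RKPG9 arrays for each of them, as the choice required. In the Cy3 channel alone Mgst1 was 0.12 and did not pass (adjusted p = 0.47 in limma), while the other 14 rises passed there.

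Ly75, an endocytic receptor of the C-type lectin family, fell the most. Its log2 ratio was 1.73, 1.67 and 1.71 on the RKPG9 arrays and -0.33, -0.22 and -0.17 on the HP4 arrays, a fall of 1.94 or 3.85-fold (standard error 0.05, adjusted p = 1.1e-09 in limma). Ly75 read 0.09 to 0.21 in HP3 and -0.17 to -0.08 in EB5, so RKPG9 was the highest of the 4 lines. Rhox6, an X-linked homeobox gene of placenta and germ cells, fell by 1.54, from 2.71, 2.74 and 2.69 to 0.99, 1.28 and 1.27, and here EB5 was near RKPG9, at 2.90 to 2.99. Ica1, an autoantigen of the pancreatic islet, fell by 1.54, from 2.02, 1.95 and 1.85 to 0.35, 0.37 and 0.46. The arrays of the lines did not overlap for any of these 3 genes, as the choice required.

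Hhip and Ptch1, which both restrain hedgehog signalling and are known targets of that pathway, fell together. Hhip, on chromosome 8, was 1.68, 1.56 and 1.79 in RKPG9 and 0.18, 0.32 and 0.33 in HP4, a fall of 1.40 (standard error 0.09). Ptch1, the hedgehog receptor on chromosome 13, fell by 1.25 (standard error 0.04), from 3.37, 3.38 and 3.34 to 2.09, 2.18 and 2.07. HP3 held 2.59 to 2.66 for Ptch1 and EB5 1.75 to 1.77, below HP4. For Hhip EB5 read 0.00 to 0.18, near or below HP4. Gsr, glutathione reductase on chromosome 8, fell by 1.27, from 1.12, 1.09 and 1.07 to -0.17, -0.16 and -0.20.

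A further 8 of the 15 largest falls were between 1.09 and 1.19. They comprised the prostaglandin reductase Ptgr1 (-1.19), the lipid synthesis regulator Mid1ip1 (-1.16), the transcription factor Msc (-1.14), the RNase P subunit Rpp25 (-1.13), the uncharacterized 4921524J17Rik of chromosome 8 (-1.12), the trophoblast and germ cell factor Tfap2c (-1.11), the endosomal GTPase Rab4a of chromosome 8 (-1.10) and the sulfotransferase Hs3st3b1 (-1.09). Tfap2c was also lower at its other probe (-0.82). It was 2.36, 2.32 and 2.21 in HP4 and 3.07, 3.32 and 3.35 in HP3, and this difference of -0.95 between the Rex1-/- lines passed (adjusted p = 2.1e-05 in limma). For Rpp25 the lines differed likewise, by -0.72. Over all genes, 37.1% differed between HP4 and HP3 by the adjusted p, so that such a call is common.

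**Figure D3:**
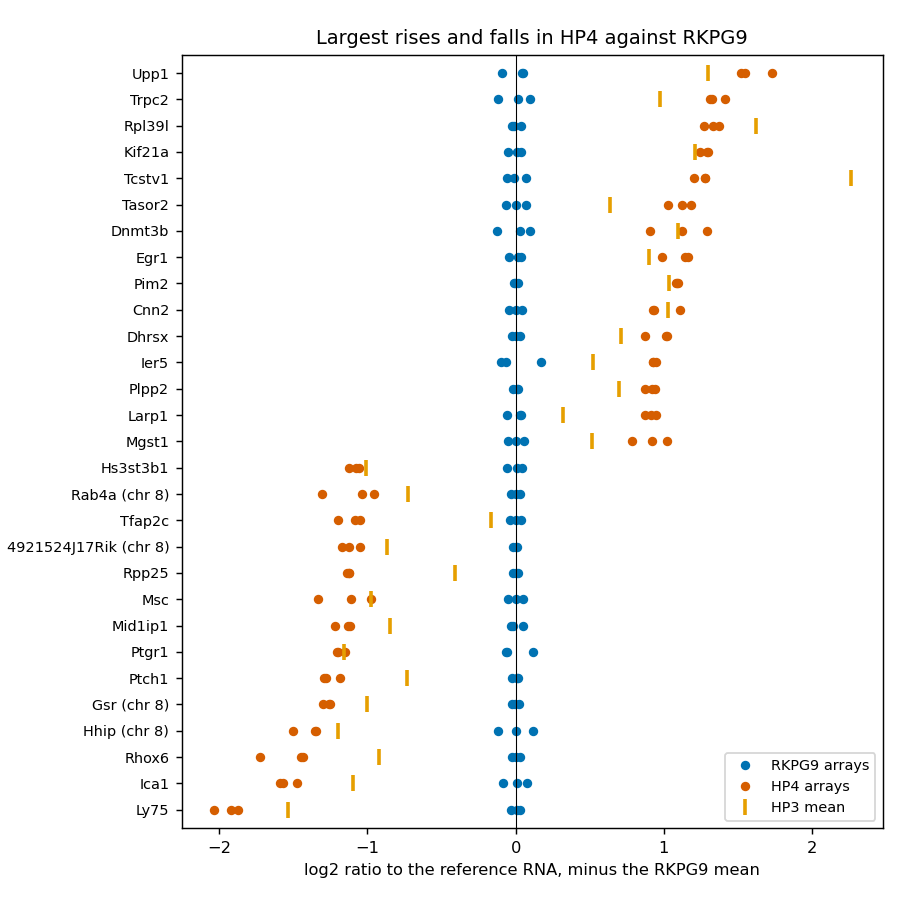
Log2 ratio minus the RKPG9 mean for the 15 largest rises and 14 of the 15 largest falls in HP4 against RKPG9, with 1 point for each of the 3 arrays of RKPG9 and HP4 and a tick for the mean of HP3. No HP4 array overlaps with an RKPG9 array for any gene shown, which was a condition of the choice, and 4 of the falls lie on chromosome 8.

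Rex1 resembles YY1 in its zinc fingers, so promoters of these 30 genes were searched for the core of the known YY1 motif, CCATNTT, on both strands. The paper also names a possible difference in target sequence preference between Rex1 and YY1. RefSeq windows reaching from 250 bases before to 50 after a start were at hand for 12 of the 15 genes that rose and 9 of the 15 that fell. The motif stood in 1 of 15 windows of the rises and 2 of 10 windows of the falls. It stood in 16.1% of all 32851 windows, in 15.1% of those of named genes on the array and in 10.5% of those of chromosome 8 genes, and no test was made of these few windows. The 3 windows that hold it, of Upp1, Ly75 and Ica1, are shown because they hold it, and no link with the size of a change was tested. They are the 250 bases before the start, from RefSeq on GRCm38.p6 and read along the gene, with the motif or its reverse complement in capitals.
Upp1, chr11:9118257-9118506, plus strand: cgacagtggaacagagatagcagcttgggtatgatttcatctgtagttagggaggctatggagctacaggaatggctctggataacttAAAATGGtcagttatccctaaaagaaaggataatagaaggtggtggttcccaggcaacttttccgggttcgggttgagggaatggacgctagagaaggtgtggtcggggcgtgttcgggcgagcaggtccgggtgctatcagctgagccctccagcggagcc
Ly75, chr2:60383274-60383523, minus strand: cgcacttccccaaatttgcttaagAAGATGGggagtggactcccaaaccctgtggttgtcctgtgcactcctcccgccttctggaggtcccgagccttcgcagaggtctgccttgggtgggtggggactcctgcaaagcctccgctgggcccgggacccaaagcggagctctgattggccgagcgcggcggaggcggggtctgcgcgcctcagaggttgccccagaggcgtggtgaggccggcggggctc
Ica1, chr6:8758459-8758708, minus strand: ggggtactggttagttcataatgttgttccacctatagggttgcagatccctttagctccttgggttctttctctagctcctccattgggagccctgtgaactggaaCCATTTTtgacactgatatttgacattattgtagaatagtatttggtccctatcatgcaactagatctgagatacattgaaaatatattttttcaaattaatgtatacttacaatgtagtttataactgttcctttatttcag
The match lies 162 bases before the start in Upp1, 226 in Ly75 and 143 in Ica1. A match is a string of letters and does not show that a protein binds there. Whether the starts are used in these cells was not checked.

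Zfp42 was lower in HP4, falling by 0.58 (standard error 0.09, adjusted p = 0.00024 in limma) at probe A_65_P04537 and by 0.59 at A_65_P04151. The ratios at the first probe were 6.05, 6.00 and 6.02 in RKPG9 and 5.66, 5.42 and 5.24 in HP4, without overlap. HP4 was also lower than HP3, by 0.55 (adjusted p = 0.00095), while HP3 differed from RKPG9 by -0.03. With the processed signals the fall was 0.35 and did not pass (adjusted p = 0.063), and with the Cy3 channel alone it was 1.28. According to the paper, a Northern blot of Rex1-/- cells lacked the wild-type transcript and showed a larger one, of truncated Rex1 joined to pacEGFP. A Zfp42 signal in HP4 can therefore not be read as intact Rex1 mRNA. The position of the probes relative to the deleted part is not given in the sources used here, so these probes check neither the label nor the loss of Rex1. Yy1, its closest relative, differed by 0.00 at its brightest probe (adjusted p = 0.93, though -0.44 with median centring) and by 0.23 at the other. Of the 8 measured genes of the Rex1 and YY1 family and its RING-type partners, 1 rose and 3 fell, 1 of these, Zfp42, on chromosome 8. With the processed signals 2 rose and 2 fell, and for Cy3 alone 1 rose and 1 fell.

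Among genes of pluripotency more fell than rose in HP4. Of the 31 pluripotency genes measured, 6 rose, 17 fell and 8 did not pass, with a median of -0.28 against 0.01 for all genes. The set shares a high ratio to the reference, with a median of 2.34 in RKPG9, and probes with an EB5 ratio above 2 read lower in HP4 by a median of 0.16 whatever their function. With an offset of 0 that excess was -0.04, and the list then held 14 falls and 7 rises at a median of -0.20. With Cy3 alone 11 fell and 9 rose, at a median of -0.05 where all genes had -0.02. Only 1 member, Klf2, lies on chromosome 8.

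Among the falls of this list were those of Dppa3, a maternal factor, by 0.85 and of Tcl1, a coactivator of the kinase Akt, by 0.76, fitted on 2 RKPG9 arrays. Dppa3 was uneven, with 4.31, 4.33 and 4.61 in RKPG9 and 3.24, 3.81 and 3.65 in HP4. Klf5, which shares targets with Klf4, fell by 0.76, from 2.19, 2.16 and 2.19 to 1.42, 1.42 and 1.43. The nuclear receptor Esrrb fell by 0.67 but gave 0.10 at its other, dimmer probe. Klf4 fell by 0.34, from 0.63, 0.73 and 0.79 to 0.32, 0.42 and 0.39, and it did not pass in the Cy3 channel alone (-0.14). Nanog fell by 0.26 and Pou5f1, which encodes Oct4, by 0.31. Both were lost with an offset of 0, at -0.14 (adjusted p = 0.20 in limma) and -0.20 (adjusted p = 0.32), and Pou5f1 turned to 0.02 in the Cy3 channel alone. Without RKPG9 replicate 1, 2 or 3 or HP4 replicate 3, Pou5f1 did not pass (-0.32 to -0.25), while no other array decided it. The wild-type line EB5 was near or below HP4 for Nanog (1.97 to 2.26) and Tcl1 (3.56 to 3.61). It was also near HP4 for Esrrb (3.00 and 3.21 on 2 arrays) and Pou5f1 (4.12 on 1 array). EB5 was near or above RKPG9 for Dppa3 (4.61 to 4.73) and Klf4 (0.96 to 1.04), and between the lines for Klf5 (1.80 to 1.96).

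The pluripotency genes also differed between the Rex1-/- lines. Of the 31, 21 were lower in HP4 than in HP3 and 1 was higher, where 37.1% of all genes differed in either direction. In HP3 against RKPG9, where 34.0% of all genes differed, 7 rose and 5 fell, with a median of 0.02. Klf4 was 0.94, 0.92 and 0.91 in HP3, above both RKPG9 and HP4, so it rose by 0.20 in HP3 and fell in HP4, and HP4 was lower than HP3 by 0.54 (adjusted p = 2.2e-05 in limma). Esrrb was lower than in HP3 by 0.55, Klf5 by 0.54 and Dppa3 by 0.56. The dimness of the HP4 arrays moves with these values, as their Cy3 signal was below that of HP3, at 115 to 139, and its part in them was not tested.

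Several genes of the primed epiblast were higher in HP4 and none passed as lower. Of 12 measured, 8 rose and 4 did not pass, with a median of 0.35, and this was 0.33 with an offset of 0 and 0.31 for Cy3 alone, where 10 rose. Besides Dnmt3b and Pim2, Igfbp2, which binds insulin-like growth factors, rose by 0.81, from 1.43, 1.34 and 1.35 to 2.24, 2.18 and 2.12. The wild-type line EB5 also lay above RKPG9 for these 3 genes, with 2.14 to 2.23 for Igfbp2, 4.50 to 4.76 for Dnmt3b and 0.97 to 1.06 for Pim2. The POU factor Pou3f1 rose by 0.61, the intermediate filament gene Krt18 by 0.42, the homeodomain factor Otx2 by 0.37, Dnmt3a by 0.32 (-0.11 with median centring) and the growth factor Fgf5 by 0.16. No member lies on chromosome 8. In HP3 against RKPG9 7 rose and none fell, with a median of 0.38, and both comparisons share the RKPG9 arrays. Between HP4 and HP3, where 37.1% of all genes differed, 2 members were higher in HP4 and 2 lower.

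Among signalling genes, as for every other list in this account, the counts are to be read against the 27.0% of all genes that rose and the 24.6% that fell. Of 33 measured genes of FGF and MAP kinase signalling, 17 rose and 5 fell, with a median of 0.11. Next to Egr1, the immediate early gene Ier3 rose by 0.77, while Dusp4, a phosphatase of MAP kinases on chromosome 8, fell by 0.63, and 3 of the 5 falls lie on that chromosome. Of 20 measured Wnt genes 6 rose and 1 fell, among them the ligand Wnt5a by 0.60, the transcription factor Tcf7 by 0.60 and the acyltransferase Porcn by 0.41, which acts on Wnt proteins. Of 33 genes of Nodal, activin, BMP and TGF-beta signalling 8 rose and 5 fell, the ligand Bmp4 falling by 0.57 and the activin subunit Inhba reading 0.70 higher at a probe that was well above background on 1 array of each line. The balance of that list turned to 6 rises and 9 falls with an offset of 0 and 5 and 11 with the processed signals, and 1 of its falls lies on chromosome 8. Of 18 genes of LIF signalling 7 fell, 1 of them on chromosome 8, and 4 rose. Of 10 hedgehog genes 3 fell, Hhip and Ptch1 among them, and 1 rose, the coreceptor Gas1 by 0.32 (-0.19 with median centring), and 6 did not pass.

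Of 20 measured genes of glycolysis and the hypoxia response, 13 rose and 1 fell, with a median of 0.35 and of 0.21 with an offset of 0. Egln3, an oxygen-sensing hydroxylase, rose by 0.74, the glucose transporter Slc2a1 by 0.70, and Gpi1, glucose phosphate isomerase, by 0.59. Gpi1, however, gave 0.05 at its other probe and -0.18 with median centring. EB5 read 0.18 to 0.22 for Slc2a1, above HP4, and lay between the lines for Egln3 (-2.31 to -2.22) and Gpi1 (-1.98 to -1.86). In the Cy3 channel alone 7 rose and 3 fell, with a median of -0.03 where all genes had -0.02. Of 48 genes of the respiratory chain 21 fell and 8 rose, with a median of -0.08 and of -0.13 with an offset of 0. On chromosome 8 lie 2 of them, the oxidase subunit Cox4i1, which fell most, by 0.75, and Ndufb7 of complex I, which fell by 0.45. Uqcrh of complex III fell by 0.46, and without chromosome 8 the list held 19 falls and 8 rises.

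Chromosome 8 carried the largest falls of several other metabolic lists. Of 20 cholesterol synthesis genes 9 fell and 1 rose, and the 2 largest falls were those of Msmo1 (-0.78) and Mvd (-0.67), both on chromosome 8. Msmo1, a methylsterol oxidase, was -0.23, -0.27 and -0.28 in RKPG9 and -1.01, -1.06 and -1.05 in HP4. Without them 7 fell, among them Fdft1, squalene synthase, by 0.38. Of 29 genes of glutathione, thioredoxin and metallothionein 10 fell and 6 rose, and 4 of the falls are on chromosome 8, namely Gsr, the quinone reductase Nqo1 (-0.88) and the metallothioneins Mt1 (-0.67) and Mt2 (-0.44). Without that chromosome 6 fell and 6 rose, and the median turned from -0.08 to 0.02. Of 22 genes of the amino acid response 10 fell, 1 of them on chromosome 8, and 6 rose. Cth of the transsulfuration pathway fell by 0.95 and the asparagine synthetase Asns by 0.83, neither on chromosome 8. Ddit4, an inhibitor of mTOR signalling, rose by 0.83. Asns was 0.42, 0.34 and 0.32 in RKPG9, -0.43, -0.49 and -0.48 in HP4 and 0.33, 0.32 and 0.33 in HP3, and the difference between HP4 and HP3 of -0.79 passed (adjusted p = 5.4e-07 in limma).

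Of 60 cell cycle and replication genes 25 fell, 2 of them on chromosome 8, and 13 rose, with a median of -0.06. At an offset of 0 the list held 18 falls and 13 rises, with the processed signals 22 and 12, and for Cy3 alone 11 and 10. The replication helicase subunit Mcm5, on chromosome 8, fell by 0.70, thymidine kinase Tk1 by 0.60 and the ribonucleotide reductase subunit Rrm2 by 0.59, with -0.54 at its other probe. Of 29 proteasome subunits 8 rose and 7 fell, near the shares over all genes, the largest fall being that of Psmd7 (-0.62) on chromosome 8. Calr, a calcium-binding chaperone on chromosome 8, was the only one of 16 chaperones of the endoplasmic reticulum to fall (-0.48), and 8 rose. Of 48 ribosomal proteins 19 rose and 3 fell. Rps23 was among the rises at 0.78, but its spot was saturated on all 6 arrays and its size is not known. With an offset of 0 the ribosomal list held 10 rises and 8 falls, with the processed signals 6 and 11, and Rps23 turned to -0.09 with median centring.

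**Figure D4:**
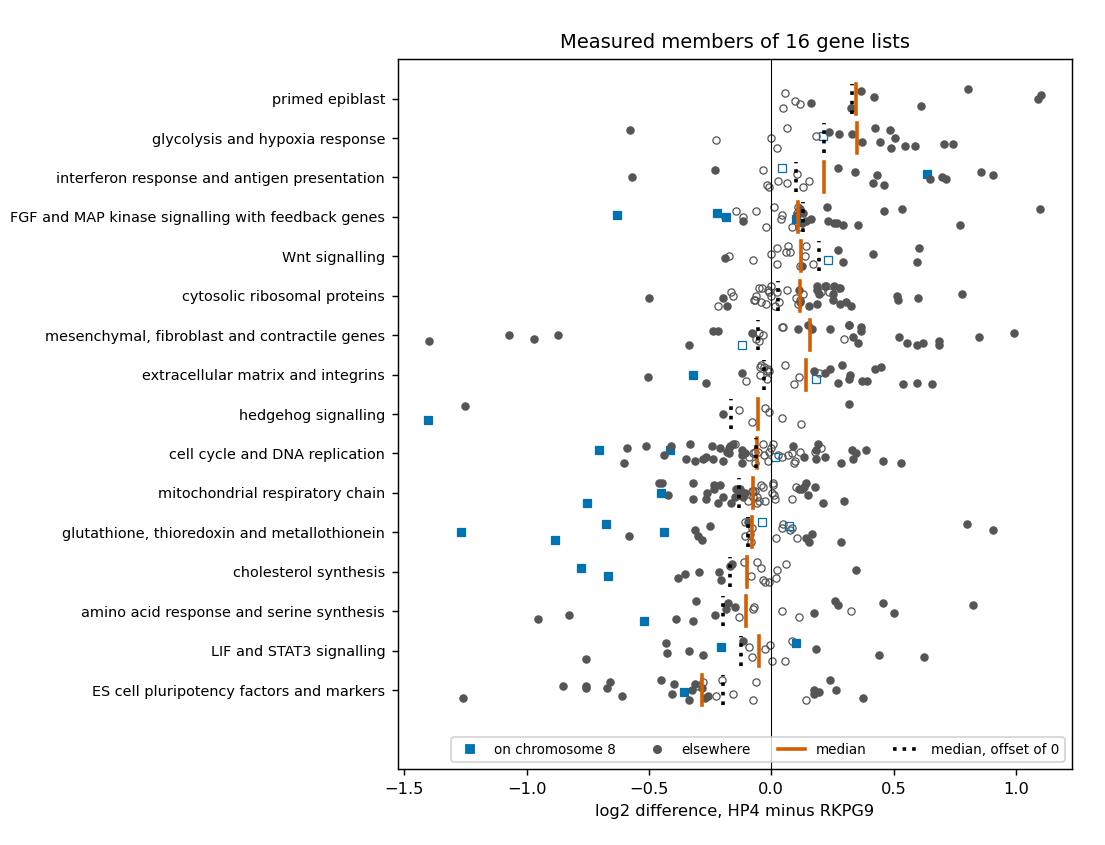
Log2 difference between HP4 and RKPG9 of each measured member of 16 gene lists, filled where the adjusted p is under 0.05, with blue squares for genes on chromosome 8. The orange bar is the median and the dotted bar the median with an offset of 0, and the 2 lie on opposite sides of 0 for the mesenchymal and the matrix genes.

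For genes of mesenchyme and matrix the direction depended on the processing. Of 34 measured mesenchymal, fibroblast and contractile genes 18 rose and 8 fell, with a median of 0.16, and with an offset of 0 the counts were 10 and 12 and the median -0.06. For 32 genes of extracellular matrix and integrins the counts were 14 and 4 with a median of 0.14, and 6 and 7 with a median of -0.03, and 1 of the 4 falls lies on chromosome 8. The mesenchymal genes are far below the reference RNA, with a median ratio of -1.90 in RKPG9 against -0.85 for the matrix genes. Probes with an EB5 ratio under -2 read higher in HP4 by a median of 0.42, those from -2 to -1 by 0.18 and those from -1 to 0 by 0.01. The lysyl oxidase Lox (0.66) and the proteoglycans Dcn (0.60) and Bgn (0.54, fitted on 2 RKPG9 arrays) rose and did not pass with an offset of 0 (0.18, 0.03 and 0.13), and in the Cy3 channel alone they were -0.12, -0.18 and -0.32. Among the falls of the mesenchymal list were S100a6, a calcium-binding protein, at -1.40 by a spot saturated on all 6 arrays, so that its size is not known, and the annexin Anxa3, by 1.07, which was 0.09 without background subtraction.

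**Figure D5:**
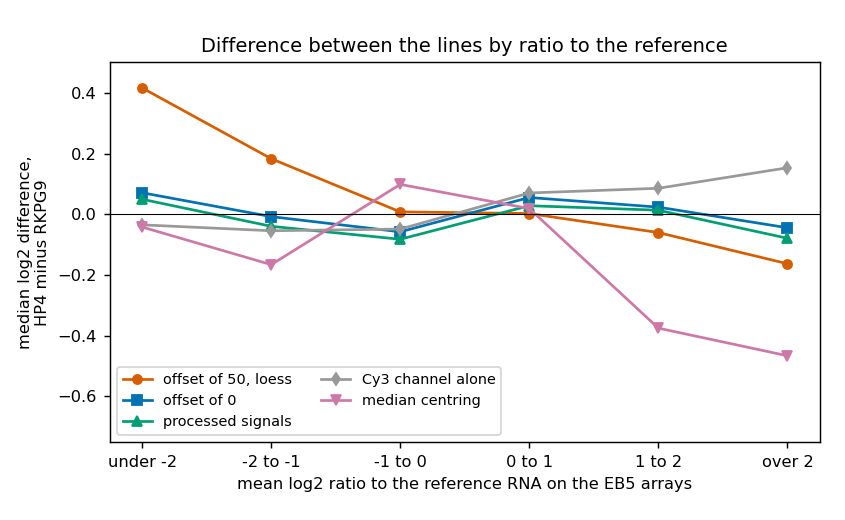
Median log2 difference between HP4 and RKPG9 over probes grouped by their mean log2 ratio to the reference on the EB5 arrays, under 5 ways of processing. With an offset of 50 the median runs from 0.42 for probes with ratios under -2 to -0.16 for those over 2, and with an offset of 0 it stays between -0.06 and 0.07.

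Of 22 measured genes that answer to interferon or present antigens 11 rose and 2 fell, with a median of 0.21, and 8 rose and 4 fell with an offset of 0, at a median of 0.10. For Cy3 alone 3 rose and 3 fell, at a median of -0.01. The immunoproteasome subunit Psmb8 rose by 0.91, the transcription factor Irf1 by 0.86 and the deconjugating protease Usp18 by 0.72, which was -0.04 in the Cy3 channel alone. Of the 22 genes, 10 were higher in HP4 than in HP3 and 0 lower, where 37.1% of all genes differed in one direction or the other. The list lies below the reference RNA, with a median ratio of -1.41 in RKPG9. Irf1 was 1.07 with an offset of 0 and 0.87 for Cy3 alone. The wild-type line EB5 read -2.11 to -2.06 for Psmb8, above HP4 at -2.66 to -2.34. For Irf1 it read 0.45 to 0.53, near HP4 at 0.50 to 0.52. For Usp18 it read -3.35 to -2.95, below HP4 at -2.73 to -2.46.

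Genes of other lineages showed no common direction. Of 24 endoderm genes 10 rose and 6 fell, 1 of these on chromosome 8, but 6 rose and 7 fell with an offset of 0 and 7 and 10 with the processed signals. Examples were Lamb1, a laminin chain, at 0.84 (0.12, 0.15 and 0.02 at its other probes) and Pdgfra, a growth factor receptor, at 0.86 (0.01 in the Cy3 channel alone). Of 21 trophoblast genes 6 rose and 3 fell, against 4 and 6 with an offset of 0 and 3 and 6 with the processed signals, Rhox6 and Tfap2c falling and the transcription factor Ets2 rising by 0.72 (0.04 at its other probe). Of 24 genes of simple epithelia 10 rose and 8 fell, 1 of these on chromosome 8, the adhesion protein Epcam rising by 0.80 and the claudin Cldn4 falling by 0.95, where HP4 was lower than HP3 by 0.64. Of 28 imprinted genes 10 rose and 11 fell, the cell cycle inhibitor Cdkn1c rising by 0.75 and the amino acid transporter Slc38a4 falling by 0.90 and, at its other probe, by 1.10. Of 21 germ cell genes 6 rose and 4 fell, Tex19.1 rising by 0.64 and Tdrkh of the piRNA pathway by 0.44, while the receptor Kit fell by 0.41 in HP4 and rose by 0.19 in HP3, though it was 0.04 in HP4 in the Cy3 channel alone.

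Among chromatin genes, 11 of 25 polycomb components rose and 6 fell, the largest fall being that of Jarid2, a cofactor of polycomb repressive complexes, by 0.40, from 3.14, 3.11 and 3.28 to 2.71, 2.88 and 2.75. Of 26 genes of DNA methylation and heterochromatin 9 rose, Dnmt3b most, and 6 fell. Over all genes 27.0% rose and 24.6% fell, and the counts of the lists in this paragraph are to be read against these shares. Of 13 genes of the Hox clusters 3 rose and 0 fell, with 2 rises and 2 falls at an offset of 0 and 2 and 4 with the processed signals. Hoxa10, one of the rises at 0.38, was well above background on 0 HP4 arrays and gave -0.77 at an offset of 0 and -0.81 with the processed signals. Of 8 Rhox and other X-linked genes of cancer and testis 2 rose and 3 fell, Rhox6 most. Of the 2 measured genes of two-cell embryos Tcstv1 rose and the other did not pass. Among 14 genes of the primitive streak and mesoderm 3 rose and 3 fell, and among 14 neural genes 5 and 4. Of 11 targets of p53 6 rose and 2 fell, of 16 heat shock proteins 8 rose and 1 fell, and of 15 transporters of the ABC family 3 rose and 3 fell, the last turning to 2 and 7 with the processed signals. The 14 genes commonly used as references held 7 rises and 2 falls, with a median of 0.17 and of 0.09 with an offset of 0.

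Among the genes chosen by name, Mylpf, a myosin light chain of skeletal muscle, fell by 0.97 in HP4 and was lower than in HP3 by 0.30. Lgals1, a galectin, fell by 0.34 at a spot saturated on 5 of 6 arrays, and did not pass without background subtraction (-0.08). Dusp14, a MAP kinase phosphatase, differed by 0.11 and did not pass (adjusted p = 0.086 in limma). With the processed signals it was -0.33 and passed (adjusted p = 0.033 in limma). The paper names these 3 as putative Rex1 targets, lower by QPCR in Rex1-/- than in wild-type cells and restored by the transgene. RKPG9 is Rex1+/-, so the comparison here is a different one. EB5, read in its own session, lay above both lines for all 3. It held 2.95 to 3.06 for Mylpf, -3.21 to -3.04 for Lgals1 and -0.15 to -0.11 for Dusp14.

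Another 9 genes were well above background in Cy3 on all 3 arrays of one line and on none of the other, so the size of their difference is uncertain. By Cy3 levels after loess and Aquantile normalization, HP4 read 1.71-fold higher for Enpp2, the secreted enzyme autotaxin, and 1.63-fold for the paraoxonase Pon3. It read 1.28-fold higher for the collagen receptor Ddr2 and 1.07-fold for Ms4a6b. RKPG9 read 1.69-fold higher for Igf2, a fetal growth factor, 1.60-fold for Foxa2, a transcription factor of endoderm, and 1.52-fold for the integrin subunit Itga9. It read 1.26-fold higher for Ppp1r32 and 1.22-fold for Lifr, the receptor of LIF. The dimmer level was raised to a floor where it lay below the lowest level well above background on its array. This moved Itga9 from 5.79 to 5.99 in log2 and Ms4a6b by almost nothing, so the other values are plain ratios and not bounds. The adjusted p was under 0.05 for each of the 9 genes, as the choice required. At its other probe, well above background on every array, Igf2 gave 0.12 and did not pass, and the call of Ms4a6b was lost without RKPG9 replicate 1 (0.16) or HP4 replicate 2 (0.19). The Cy3 ratios hold on that scale only. The ratio fit gave 1.65-fold for Enpp2, 1.56-fold for Pon3 and a log2 difference of 0.26 for Ddr2, each less than the Cy3 ratio. Cy3 alone, scaled otherwise, gave log2 differences of 0.48, 0.14 and 0.22. An offset of 0 gave much larger log2 differences for some, 1.41 for Enpp2, -2.42 for Igf2, -2.27 for Foxa2 and -2.91 for Itga9. With the processed signals these were 2.12, -2.95, -4.09 and -4.67. Pon3 moved less, to 0.65 at an offset of 0 and 0.92 with the processed signals. All these values are open to dye bias, since the dyes were not swapped.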

How the data were processed

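RNA of EB5, RKPG9, HP3 and HP4 was hybridized to 12 Agilent arrays of 2 colours, and this account uses the 3 HP4 and 3 RKPG9 arrays, with the others in the fit. The deposited spot intensities are means with local background medians, read by Agilent Feature Extraction 7.5.1 per the file headers, and RKPG9, HP3 and HP4 were extracted in one session. The deposited log10 ratios are Cy5 over Cy3, and the authors' table of log10 levels equals minus that ratio plus a level per probe for 91.0 to 91.2% of its values within 0.01, with column medians of 2.87 or 2.88. Its direction follows from this match.

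Mean signals were corrected by normexp (offset 50), normalized by loess and averaged per probe, without control spots and outlier spots (28 to 98 on these arrays). The log2 ratio of Cy3 over Cy5, from the deposited intensities, was fitted for all 12 arrays with limma 3.58.1 in R 4.3.3, files being read by data.table (version 1.17.8), with 8 residual and 3.41 prior degrees of freedom. Calls need an adjusted p under 0.05, and the second threshold is 2-fold. An exact permutation of 3 against 3 arrays cannot give p under 0.1. Names came from a GRCm38.p6 gene table, 4326 current symbols, 4126 older ones and 5 accessions, while 741 symbols were not matched and 11082 probes have none. No genome was used, and only chromosomes and gene order were taken from that table. Python 3.11.15 and matplotlib 3.10.9 were used for names, promoters and plots.

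The genes named start with the 15 largest rises and 15 largest falls among genes called, not overlapping, above background and unsaturated. These also kept their direction under 3 other scalings. Added to them are up to 5 genes each way that were called and well above background on the arrays of one line only. Up to 3 members of each of 36 gene lists and 10 genes fixed by name, of which Sox2 was not measured here, complete them. The rule names 134 genes, and the text gives 99 of them, some genes being not reported here. Other list members are named where counts turn on them, chosen after their values were seen. The comparison, members and lists were chosen with earlier results of these data known. In simulated data for HP4 against RKPG9 with 20280 probes, 45 of 50 probes changed by 0.5 and 50 of 50 changed by 1.2 were called, and 10 of 20078 unchanged ones. The alternatives were no background subtraction, an offset of 0, the software's processed signals, Cy3 alone, Aquantile, median centring, the authors' table, keeping outlier spots, leaving out dim probes, fits of 6 and 9 arrays, the replicate number as a block, array weights, the mean of all probes and each array left out. Scale normalization and leaving out chromosome 8 were added after the values were seen.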

Additional observations from a re-analysis of the deposited data

Results flagged for a closer look

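Many genes differed between HP4 and HP3 by limma, and 3 of the genes named by rule are given here because they moved in opposite directions against RKPG9 or because the lines differed by more than 2-fold. Both lines are compared with the same RKPG9 arrays. Tcstv1 was lower in HP4 than in HP3 by a log2 difference of -1.01 (adjusted p = 4.8e-06), with 1.25 in HP4 and 2.26 in HP3 against RKPG9. Klf4 had a difference of -0.54 (adjusted p = 2.2e-05), falling in HP4 (-0.34) and rising in HP3 (0.20). Kit had a difference of -0.61 (adjusted p = 5.3e-05), falling in HP4 (-0.41) and rising in HP3 (0.19). All 3 HP4 arrays lay below the HP3 arrays for each of these genes. Groups of 3 arrays are too small for a search for outlying arrays.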

How the results depend on the processing

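Of the 134 genes named by rule, 134 kept their direction and their side of the threshold with Aquantile, with outlier spots kept and with the replicate block, 98 did with median centring, 105 for Cy3 alone, 119 with the processed signals and 124 at an offset of 0. The cause of the changes was not tested. By the adjusted p alone, median centring gave 7855 probes higher and 7695 lower, and Cy3 alone gave 2815 and 2501. Past both thresholds, probes higher and lower numbered 219 and 455 from the processed signals, 91 and 222 at an offset of 0, 17 and 26 if background was not subtracted, 6 and 274 under median centring and 236 and 398 in the authors' table. The median of chromosome 8 minus that of all other genes was -0.278 in the analysis reported, -0.341 with the processed signals, -0.326 with median centring, -0.338 at an offset of 0, -0.243 for Cy3 alone, -0.166 if background was not subtracted, -0.349 in the authors' table and -0.266 with scale normalization, which was chosen after seeing the data. Leaving out 1 array at a time gave 3624 to 3861 probes higher and 3251 to 3624 lower by the adjusted p alone, 28 to 34 higher and 47 to 53 lower past both thresholds, and -0.287 to -0.267 for chromosome 8. Without the probes of chromosome 8 the counts were 4190 and 3624, and 28 and 44.

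Of the 134 genes, 20 turned direction with median centring, 12 for Cy3 alone, 4 with the processed signals, 4 in the authors' table, 2 if background was not subtracted and 1 at an offset of 0. Among the genes given above it turned for Anxa3 without background subtraction (0.0901), for Bgn (-0.323), Kit (0.0421), Lox (-0.122), Pou5f1 (0.0154) and Usp18 (-0.0427) in the Cy3 channel alone, for Dnmt3a (-0.105), Gas1 (-0.186), Gpi1 (-0.179) and Rps23 (-0.0882) with median centring, for Dcn with the processed signals (-0.0135), the authors' table (-0.0135) and the Cy3 channel alone (-0.18), for Hoxa10 with the processed signals (-0.808), the authors' table (-0.808), an offset of 0 (-0.769) and Cy3 alone (-0.286), and for Dusp14 with the processed signals (-0.334) and the authors' table (-0.333).

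The deviations of HP4 and RKPG9 arrays with the same number correlated by 0.148, 0.0194 and 0.0649, with the own number the best match for 2 of 3. With 3 arrays per line this cannot decide whether arrays of one number were handled together. The labels do not say what the number stands for. With the number as a block, 4207 probes were higher and 3884 lower, 28 and 49 past both thresholds, and chromosome 8 gave -0.278. Dim probes are limited by background, as 85.3 to 86.1% of spots on the HP4 arrays were well above it in Cy3.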
